A study of Rattus norvegicus with 4 samples.

Results

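Genes of Golgi membranes and Golgi structure were followed, 10 in all: Golm1, Golim4, Tm9sf1, Tm9sf2, Tm9sf3, Tm9sf4, Golga2, Golgb1, Gorasp2 and Glg1. The 10 members were taken by exact gene symbol from the 22250 genes in the count tables, and all 10 were found, had counts in each of the 4 libraries and passed the low-count filter. The group was chosen from earlier results of the same comparison, on the footprint levels of Golm1 and Tm9sf3, so the changes of the members below describe these libraries and carry no test. The libraries are ribosome profiles, in which short mRNA fragments protected by ribosomes are sequenced, from ventricular cardiomyocytes of Wistar rats aged 1 to 2 days. One group of 2 libraries received a control siRNA and the other group of 2 libraries received an siRNA against Cpeb4, called siCpeb4 here. Silencing lasted 72 h, and Cpeb4 encodes a protein that binds elements at the 3′ end of mRNAs and regulates their poly(A) tails and translation.

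The protocol text shared by both groups also describes an inhibitor of the mTOR kinase, Torin1 at 250 nM for 24 h. That text does not say which samples received Torin1, so both groups may have. The labels name a trypsin digestion and a Percoll gradient as the source of the cells. They name no separate cultures for the replicates, so the spread between the 2 libraries of a group may be technical. An SD given below is that spread. An SE or interval of a fold change comes from the edgeR fit to these same libraries, so technical spread may enter it too. The values are footprint abundances, which combine mRNA level with ribosome occupancy per mRNA, and fewer cells of a type cannot be told apart from fewer footprints per cell.

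The Golgi apparatus receives newly made membrane and secreted proteins from the endoplasmic reticulum, modifies their sugar chains and sorts them to the cell surface, to secretion or to lysosomes. Golgins are long coiled-coil proteins that tether incoming vesicles and, with the GRASP proteins, hold the stacked membranes together. In cardiomyocytes this route supplies ion channels, adhesion proteins and secreted natriuretic peptides. The TM9SF proteins are a conserved family with many membrane-spanning segments, found along the Golgi and endosomes.

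Of the 10 members, 1 rose and 1 fell. The test across all genes (edgeR quasi-likelihood, adjusted p under 0.05) called 3.41% of 11335 genes, with 1.54% higher and 1.87% lower. Golm1 was the member that rose and Tm9sf3 the member that fell, and nothing is read from these counts because the choice of members used them. The other 8 members had log2 fold changes from -0.51 for Gorasp2 to 0.12 for Golim4. The median log2 fold change of the 10 members was -0.003, against -0.0031 for all genes tested. DESeq2 called 192 genes, 2 of them members, and nothing is read from this count either. Footprints of all members together made up 1628 and 1528 CPM (footprints scaled to a common library total) in the controls and 1515 and 1605 CPM in the siCpeb4 libraries, so the ranges of the groups overlapped.

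**Figure D1:**
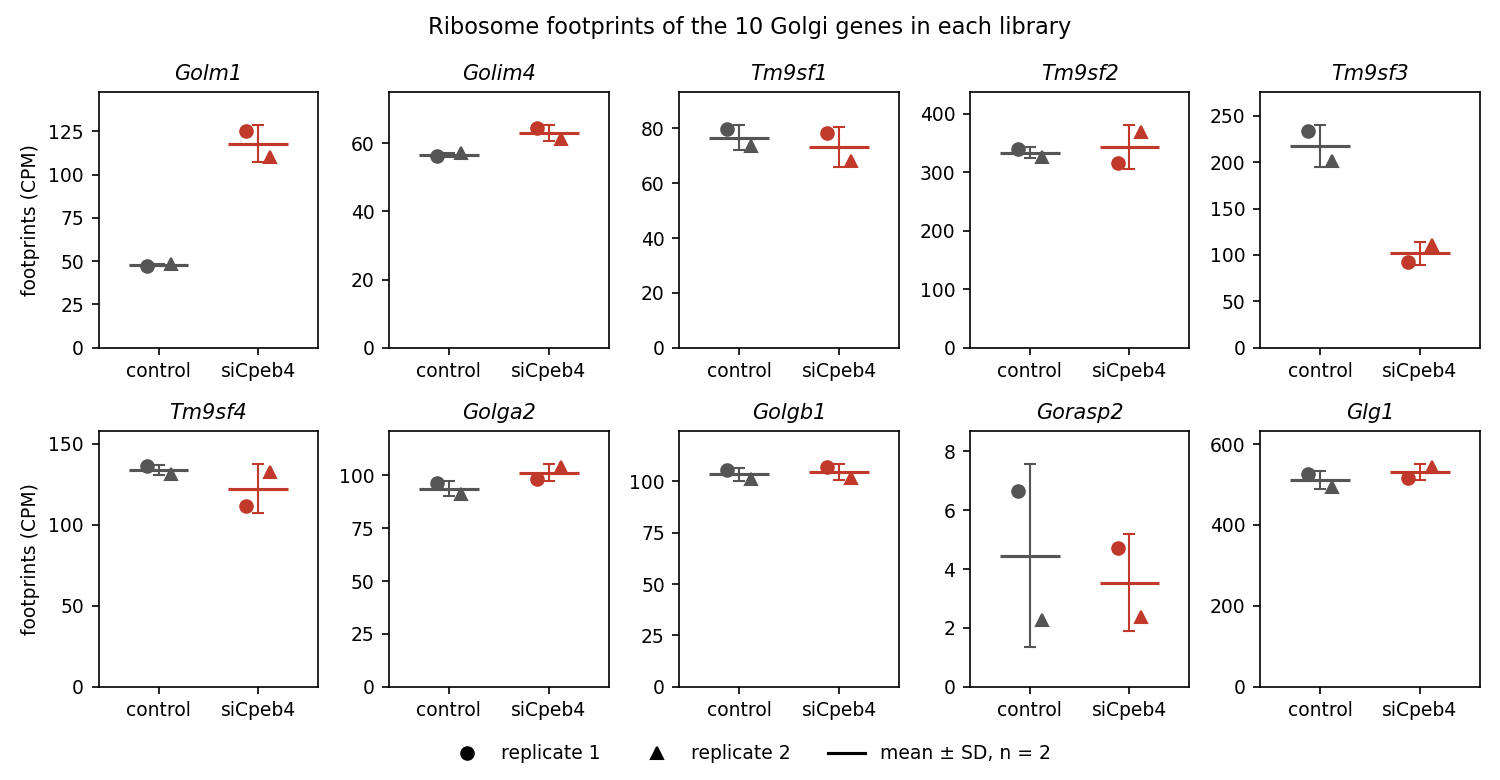
Footprint level of each of the 10 Golgi genes in CPM (footprints scaled to a common library total, linear axis from 0) in the 2 control and the 2 siCpeb4 libraries; points are libraries and bars are mean ± SD (n = 2). Golm1 lies at 47.4 and 48.4 CPM in controls and at 125 and 110 CPM after siCpeb4, Tm9sf3 goes from 233 and 201 CPM to 92.7 and 111 CPM, and the other 8 genes stay closer to their control levels.

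Golm1 and Golim4 encode Golgi proteins with 1 membrane span and a coiled coil in the lumen. Golm1, also known as GP73, is a protein of the early Golgi that cycles to endosomes and can be cleaved and secreted. Golm1 (ENSRNOG00000018400) had 278 and 172 footprints in control replicates 1 and 2 and 613 and 652 in siCpeb4 replicates 1 and 2. Scaled to the library totals these were 47.4, 48.4, 125 and 110 CPM. Both siCpeb4 libraries were thus far above both controls, and the controls differed little from each other. The mean went from 47.9 ± 0.698 CPM (SD, n = 2) to 118 ± 10.7 CPM (SD, n = 2). The fitted log2 fold change was 1.27 ± 0.12 (SE), or 2.41-fold, with a 95% interval of 2.02-fold to 2.88-fold. Each siCpeb4 library was 2.28 to 2.64 times each control library. Golm1 took place 8 by size among the 174 genes called higher.

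Golim4, also known as GPP130, is a cis-Golgi protein that cycles through endosomes and is degraded when manganese is high. Golim4 (ENSRNOG00000024213) was at 56.3 and 57.1 CPM in the controls and at 64.6 and 61.4 CPM after siCpeb4. The groups did not overlap, but the shift was small, with a log2 fold change of 0.12 ± 0.12 (SE) and a 95% interval of 0.91-fold to 1.30-fold. Golim4 was not called. Groups without overlap were seen in 4 of the 10 members, Golm1, Golim4, Tm9sf3 and Golga2, and in 46.0% of all genes tested, so the count of members is near the background.

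Casc4, which encodes GOLM2, is the paralogue of Golm1. It had 117 and 84 footprints in the controls and 123 and 156 after siCpeb4. Scaled to the library totals these were 20.0, 23.6, 25.2 and 26.4 CPM. The groups did not overlap, as in 46.0% of all genes tested. The controls averaged 21.8 ± 2.60 CPM and the siCpeb4 libraries 25.8 ± 0.873 CPM (SD, n = 2 each). Its log2 fold change was 0.23 ± 0.18 (SE) and was not called (edgeR adjusted p = 0.578). The 95% interval was 0.91-fold to 1.51-fold. The difference between the changes of Golm1 and Casc4 was not tested.

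In the RefSeq annotation of the assembly GRCr8, the span of Golm1 overlaps that of Naa35, a subunit of an N-terminal acetyltransferase, and that of a long noncoding RNA. Long noncoding RNAs also overlap Tm9sf2, Tm9sf4 and Gorasp2, and a pseudogene overlaps Tm9sf2. The files were counted on another assembly, and no source used here says whether the counting took strand into account. Naa35 had 721 and 422 footprints in the controls and 673 and 899 after siCpeb4. Scaled to the library totals these were 123, 119, 138 and 152 CPM. The groups did not overlap, as in 46.0% of all genes tested. Naa35 had a log2 fold change of 0.23 ± 0.11 (SE), with a 95% interval of 1.003-fold to 1.375-fold, and was not called. Whether reads of overlapping genes entered the counts of Golm1 or of these other members was not tested.

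The TM9SF family was measured through all of its 4 genes. Tm9sf3 is a widely expressed member and its protein spans the Golgi membrane many times. Tm9sf3 (ENSRNOG00000013443) had 1367 and 716 footprints in the controls and 453 and 654 after siCpeb4. These were 233 and 201 CPM in the controls and 92.7 and 111 CPM after siCpeb4. The lowest control library was well above the highest siCpeb4 library. The controls averaged 217 ± 22.4 CPM and the siCpeb4 libraries 102 ± 12.7 CPM (SD, n = 2 each). The log2 fold change was -1.13 ± 0.12 (SE), a level 0.458 times the control with a 95% interval of 0.387 to 0.542. Tm9sf3 took place 29 by size among the 212 genes called lower.

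The other TM9SF genes were not called. Tm9sf2, whose protein is needed for the Golgi localisation of some glycosylation enzymes, was at 340 and 326 CPM in the controls and at 316 and 369 CPM after siCpeb4. The siCpeb4 libraries lay on both sides of the controls, and the log2 fold change was 0.01 ± 0.10 (SE). Tm9sf4, implicated in adhesion and in the acidity of endosomes, was at 136 and 131 CPM in the controls and at 111 and 133 CPM after siCpeb4. Its groups overlapped, with a log2 fold change of -0.16 ± 0.11 (SE). Tm9sf1, linked to autophagy, was at 79.8 and 73.4 CPM in the controls and at 78.3 and 68.2 CPM after siCpeb4. The groups overlapped here as well, with a log2 fold change of -0.10 ± 0.12 (SE). The 95% intervals were 0.87-fold to 1.17-fold for Tm9sf2, 0.76-fold to 1.05-fold for Tm9sf4 and 0.78-fold to 1.11-fold for Tm9sf1. None of the intervals reaches the level of Tm9sf3, whose interval ends at 0.542, but the difference between family members was not tested.

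The composition of the family's footprints does not depend on how the libraries were scaled. Tm9sf3 gave 29.6% of the 4623 family footprints in control replicate 1 (exact 95% binomial interval 28.3% to 30.9%) and 27.5% of 2604 in control replicate 2 (25.8% to 29.3%). It gave 15.5% of 2926 in siCpeb4 replicate 1 (14.2% to 16.8%) and 16.3% of 4023 in siCpeb4 replicate 2 (15.1% to 17.4%). The intervals cover counting error only, while replicates differed by more than counting error across genes, and these shares restate the counts on which Tm9sf3 was chosen. The share of Tm9sf2 was 43.1% and 44.5% in controls and 52.8% and 54.2% after siCpeb4, while its own level in CPM had overlapping groups. The family sum went from 761 ± 39.4 to 640 ± 58.1 CPM (SD, n = 2). Without Tm9sf3 it was 543 ± 17.0 and 538 ± 45.4 CPM, so these sums overlapped between the groups. These are shares of footprints and depend on the lengths of the coding sequences, so they are not shares of mRNA or protein molecules.

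**Figure D2:**
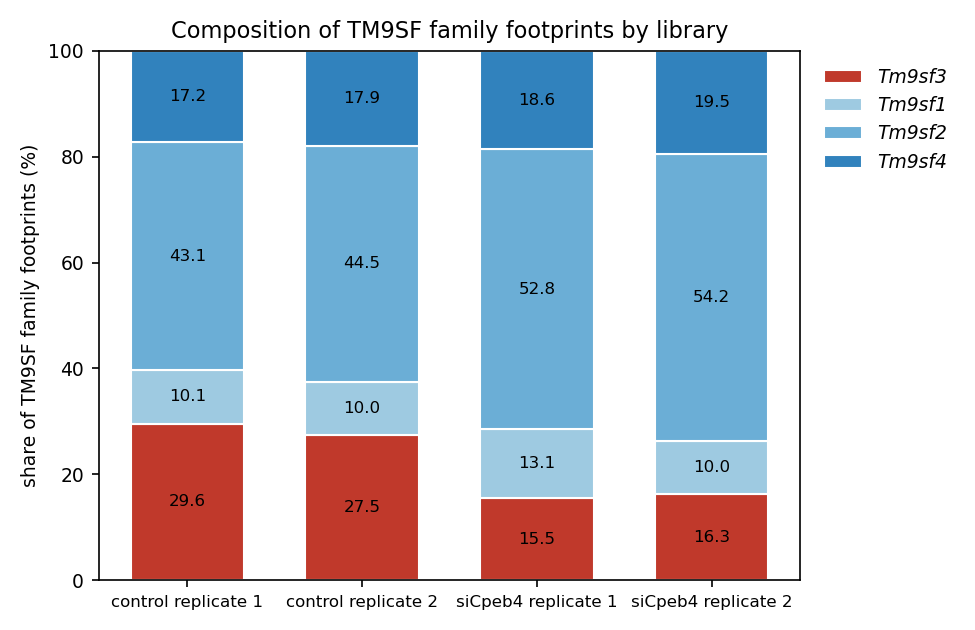
Share of each TM9SF gene in the footprints of the family (percent, stacked to 100) in each of the 4 libraries. The red Tm9sf3 part is 29.6% and 27.5% in the controls and 15.5% and 16.3% after siCpeb4, while the Tm9sf2 part is larger after siCpeb4.

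RefSeq lists 1 pseudogene each for Tm9sf2 and Tm9sf3. Only uniquely mapped reads were kept, going by the file names, so reads that match a near-identical copy would be lost, and the levels of Tm9sf2 and Tm9sf3 are uncertain to that extent. The same holds for Golga2, for which RefSeq lists 2 Golga2-like genes. Whether such losses differ between the groups was not tested.

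The genes of structural proteins of the Golgi stack were not called. Golga2 encodes GM130, a golgin of the cis face that binds GRASP65 and the tether p115. It was at 96.4 and 91.2 CPM in the controls and at 98.4 and 104 CPM after siCpeb4, with a log2 fold change of 0.08 ± 0.11 (SE). The siCpeb4 libraries were both above the controls, but the lowest siCpeb4 value was nearer to the highest control than the replicates of either group were to each other. Golgb1 encodes giantin, a very long golgin anchored in the membrane by its end. It was at 106 and 101 CPM in the controls and at 107 and 102 CPM after siCpeb4, with a log2 fold change of -0.02 ± 0.11 (SE) that is positive (0.01) when libraries are scaled by their totals alone. The groups of Golgb1 overlapped. The 95% interval was 0.90-fold to 1.24-fold for Golga2 and 0.84-fold to 1.16-fold for Golgb1.

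Gorasp2 encodes GRASP55, a stacking protein of the medial Golgi. It was the member with the fewest footprints, 39 and 8 in the controls and 23 and 14 after siCpeb4. The levels were 6.65 and 2.25 CPM in the controls and 4.70 and 2.37 CPM after siCpeb4. The siCpeb4 values lay between the control values, and control replicate 2 had 0.338 times the level of control replicate 1. The log2 fold change of -0.51 ± 0.44 (SE) has a 95% interval of 0.37-fold to 1.34-fold and was 0.58 without control replicate 1. That interval includes the level of 0.458 times the control seen for Tm9sf3.

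Glg1 encodes MG-160, a cysteine-rich membrane protein of the medial Golgi that binds fibroblast growth factors. It had the most footprints of the members, 3090 and 1758 in the controls and 2526 and 3216 after siCpeb4. It was at 527 and 495 CPM in the controls and at 517 and 544 CPM after siCpeb4. The groups overlapped and the log2 fold change was 0.02 ± 0.10 (SE), with a 95% interval of 0.88-fold to 1.17-fold. Sampling depth was highest for this gene, and the interval is the narrowest of the members on the log2 scale.

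**Figure D3:**
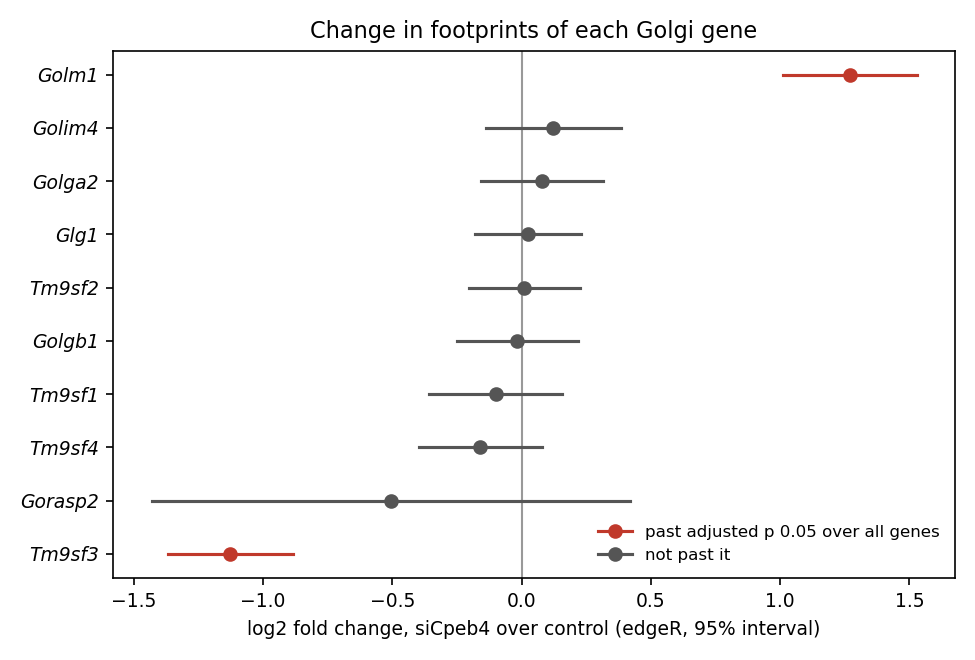
Log2 fold change of siCpeb4 over control for each of the 10 Golgi genes, from edgeR, with the 95% interval as a bar; red marks genes past an adjusted p of 0.05 over all genes. Golm1 (1.27) and Tm9sf3 (-1.13) stand apart at both ends, and the bars of the other 8 genes cross 0, the widest being that of Gorasp2.

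The same counts can be set against other members of the same library, which needs no scaling between libraries. These ratios reuse the values that chose Golm1 and Tm9sf3 and are no further evidence. Golm1 had 3.52 and 3.79 footprints per 100 footprints of the other 8 members in the controls and 9.66 and 7.97 after siCpeb4. Tm9sf3 had 17.3 and 15.8 per 100 in the controls and 7.14 and 7.996 after siCpeb4. The count of Golm1 over that of Tm9sf3 went from 0.203 and 0.2402 in the controls to 1.35 and 0.997 after siCpeb4.

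The libraries of a group also differed from each other. Golm1 was higher in replicate 1 (125 CPM) than in replicate 2 (110 CPM), and Tm9sf3 was lower in replicate 1 (92.7 CPM) than in replicate 2 (111 CPM). The controls differed more for Tm9sf3, at 233 and 201 CPM, than for Golm1. Tm9sf3 in replicate 2 was 0.864 times replicate 1 in the controls and 1.19 times replicate 1 after siCpeb4. The same ratios for Golm1 were 1.02 and 0.880. Cpeb4 itself was at 59.9 and 71.2 CPM in the controls and at 8.18 and 9.98 CPM after siCpeb4, where it rests on 40 and 59 footprints. The file name of siCpeb4 replicate 2 gives a footprint window that ends 1 nt earlier than in the other libraries, and its part in these values was not tested beyond leaving the library out. Without siCpeb4 replicate 2 the log2 fold change was 1.37 for Golm1 and -1.25 for Tm9sf3, and without siCpeb4 replicate 1 it was 1.17 and -1.02. Both genes were called in each alternative fit that used all 4 libraries. Since they were chosen on these libraries, this is no further evidence.

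The genes with the most similar profile to Golm1 were Car12, Dlk1 and Sik1. Likeness was the root mean square distance between log2 CPM values centred on each gene's mean over the 4 libraries. Only tested genes outside the members were ranked, and genes without a symbol or with one starting with LOC, RGD or AABR were left out. The distance was 0.086 for the carbonic anhydrase gene Car12, 0.126 for Dlk1, a relative of the Notch ligands, and 0.128 for the salt-inducible kinase gene Sik1. Only Sik1 had many footprints, 166 and 98 in the controls and 290 and 349 after siCpeb4, whereas Car12 had 7, 4, 16 and 19 and Dlk1 had 4, 3, 11 and 12 in the same order of libraries. For Tm9sf3 the nearest genes were Aste1 (distance 0.059), Tnfsf18 (0.063), which encodes a ligand of the tumour necrosis factor family, and Tmcc2 (0.084). Tnfsf18 had 173 and 81 footprints in the controls and 51 and 79 after siCpeb4, while Aste1 and Tmcc2 had at most 29 in any library. The list of neighbours is a description over 4 libraries of 1 comparison.

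Other genes of the Golgi were read from lists by role, which hold 190 tested genes apart from the members. The lists were written with earlier results of these data known, so the shares called in them are descriptions and carry no test. Of these, 5 rose and 4 fell (edgeR, adjusted p under 0.05), which is 4.74%, against 3.41% of all genes tested. DESeq2 called 2 of them. Their median log2 fold change was -0.003, as it was -0.003 over all genes, and 97 of the 190 were negative. The medians of the 10 lists with more than 1 gene lay between -0.13 and 0.12.

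The 5 called increases were Cog6, St3gal6, St3gal4, Man1c1 and Man1a1. Cog6, a subunit of the conserved oligomeric Golgi complex that tethers vesicles within the Golgi, had 343 and 174 footprints in the controls and 443 and 504 after siCpeb4. The means were 53.7 ± 6.74 and 87.9 ± 3.78 CPM (SD, n = 2 each), a 1.59-fold rise (edgeR adjusted p = 0.00285). It was the only called gene of 8 in that complex. Of 37 glycosylation enzymes 4 rose and none fell in edgeR (10.8%, against 3.41% of all genes in either direction), and DESeq2 called 0 of them. The sialyltransferase St3gal6 rose 1.68-fold, with means of 25.0 ± 5.66 and 41.7 ± 6.60 CPM (SD, n = 2 each; edgeR adjusted p = 0.0157). St3gal4, another sialyltransferase, rose 1.53-fold, with means of 21.4 ± 1.27 and 33.7 ± 1.76 CPM. The mannosidases Man1c1 and Man1a1, which trim N-linked sugar chains, rose 1.498-fold and 1.36-fold. The median of all 37 enzymes was -0.004, with 19 negative and a range from -1.13 to 0.74.

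The 4 called decreases were Ergic1, Tmed4, Arfgef1 and Tmem87b. Of 23 genes of p24 proteins and other cargo receptors, 2 fell and none rose (8.7%, against 3.41% of all genes in either direction), and DESeq2 called 1. Ergic1, which cycles between the endoplasmic reticulum and the Golgi, had 393 and 263 footprints in the controls and 240 and 222 after siCpeb4. It fell, with means of 70.5 ± 4.94 and 43.3 ± 8.15 CPM (SD, n = 2 each) and a log2 fold change of -0.73 ± 0.14 (SE; edgeR adjusted p = 0.00394). Tmed4, a p24 cargo receptor, fell with a log2 fold change of -0.63 ± 0.15 (SE). Arfgef1, an exchange factor that activates ARF proteins at the trans-Golgi, was the called gene among 20 sorting genes, with a log2 fold change of -0.46 ± 0.12 (SE). Tmem87b, a Golgi membrane protein, was the called gene among 25 other Golgi membrane proteins, with a log2 fold change of -0.57 ± 0.14 (SE).

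Most of these calls rested on all 4 libraries. The call of Cog6 held in all 10 alternatives. That of Ergic1 ended in edgeR without siCpeb4 replicate 2 (adjusted p = 0.0855). St3gal6 lost its call without control replicate 1 (edgeR adjusted p = 0.346) or siCpeb4 replicate 2 (0.18), and Tmem87b without control replicate 1 (0.241), siCpeb4 replicate 1 (0.0813) or siCpeb4 replicate 2 (0.0503). Man1c1, St3gal4, Man1a1, Tmed4 and Arfgef1 lost theirs in each of the 4 fits that left out a library, where the edgeR adjusted p ranged from 0.0531 to 0.328. Man1a1 was also not called with RLE size factors (edgeR adjusted p = 0.0504), nor Arfgef1 with library totals only (0.0549). DESeq2 called Cog6 and Ergic1 and not the other 7.

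No gene was called by edgeR or DESeq2 in 5 lists of other roles. These were 16 other golgins and tethers, 16 genes of the COPI coat and the Arf cycle, 14 genes of the COPII coat and exit sites, 14 Golgi SNAREs, which fuse vesicles, and 16 sugar and ion transporters. Their numbers with an unadjusted edgeR p under 0.05 were 0, 1, 1, 1 and 3 in that order, as had 1824 of all 11335 genes. The COPI list had the lowest median, -0.13, with 14 of 16 negative, and the transporters the highest, 0.12, with 5 of 16 negative. The golgins and tethers had a median of 0.04 and log2 fold changes from -0.57 to 0.28. The COPII and SNARE lists had medians of -0.02 each.

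**Figure D4:**
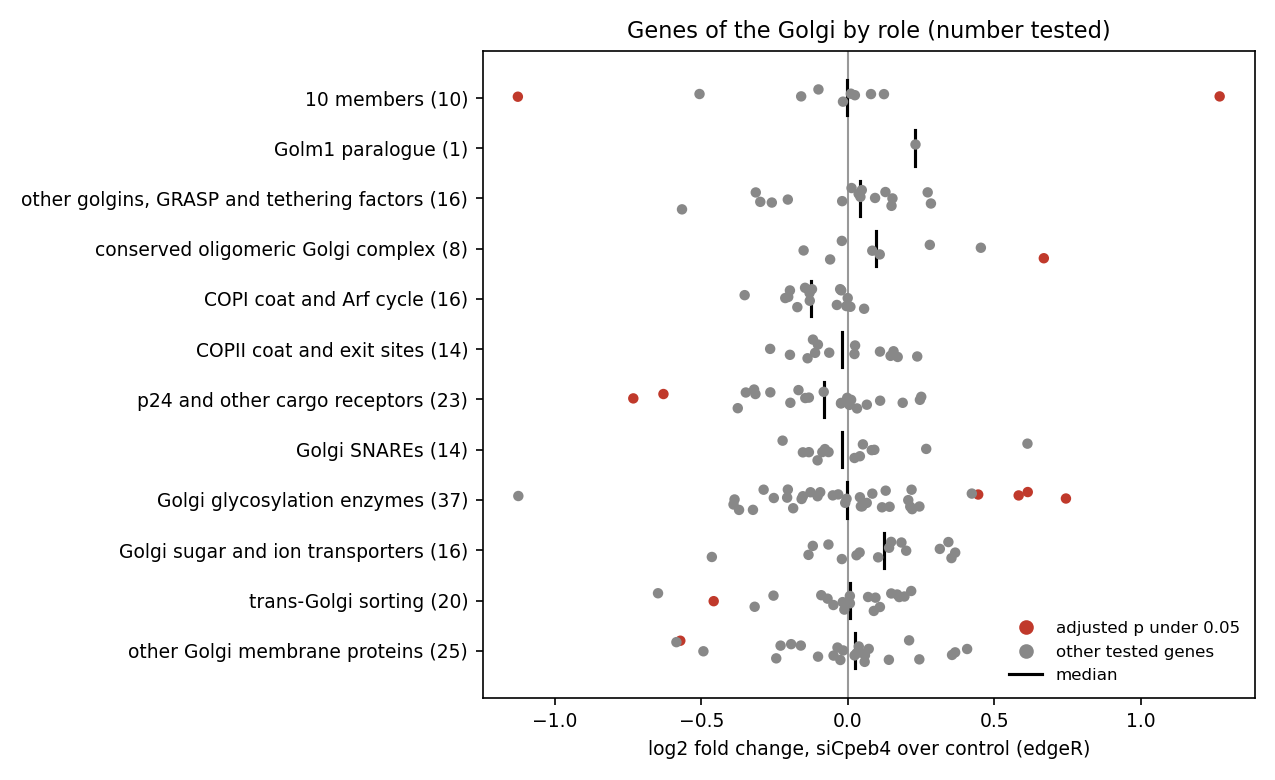
Log2 fold change of siCpeb4 over control for the 10 members (top) and for the tested genes of each Golgi list by role; each point is a gene, red points passed an adjusted p of 0.05 over all genes, and black lines are medians. The medians of the larger lists lie between -0.13 and 0.12, and Golm1 (1.27) has the largest increase shown.

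Total gene counts were 3554011 to 5910911 per library. Markers of cardiomyocytes were abundant in each library, with 79112 to 82438 CPM summed over 11 genes in the controls and 77198 to 86563 CPM after siCpeb4. Fibroblast markers were present too, and their sum was lower in both siCpeb4 libraries, with 12110 to 13167 CPM summed over 10 genes in the controls and 9246 to 9773 CPM after siCpeb4. Col1a1 made up most of this sum, with 8586 and 7867 CPM in the controls and 6072 and 5374 CPM after siCpeb4. Without it the other 9 genes summed to 4581 and 4243 CPM in the controls and 3702 and 3871 CPM after siCpeb4. Of 9 fibroblast genes tested 1 fell (Col1a1), 7 were negative and 2 positive, and 4 had an unadjusted edgeR p under 0.05. Col1a2 was listed at 0 in each library. Endothelial markers summed to 306 to 340 and 300.3 to 334 CPM, smooth muscle and pericyte markers to 5829 to 5881 and 6113 to 6501 CPM, leukocyte markers to 429 to 649 and 411 to 561 CPM, and epicardial markers to 306 to 322 and 239 to 280.2 CPM, in controls and after siCpeb4. None of the genes in these last 4 lists was called by edgeR or DESeq2. In that order, 0 of 7, 0 of 7, 2 of 6 and 1 of 5 tested had an unadjusted edgeR p under 0.05. Over all genes this was 1824 of 11335. The T cell marker Cd3e was listed at 0. Golm1 and Tm9sf3 are expressed in many cell types, and the part of the cell mixture in their values was not tested.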

How the data were processed

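The authors deposited raw footprint counts per Ensembl gene, with no normalisation, in 4 files of 22250 genes and 5 HTSeq summary rows. Per the submitters' processing notes, Bowtie2, STAR 2.7, HTSeq 0.12 and the assembly Rnor_6.0 were used, without their roles. The labels call the molecule polyA RNA and the libraries footprints. Summary rows were left out; reads without a feature were 4.42% to 4.63% and ambiguous reads 0.0798% to 0.0916% of the reads counted.

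Levels are CPM of the library total. Changes came from edgeR 4.0.16 in R 4.3.3 (quasi-likelihood F-test, TMM, filterByExpr with a minimum count of 10, group as the only term), two-sided, with Benjamini-Hochberg adjustment over 11335 genes and a threshold of 0.05. Standard errors came from the F statistic and 95% intervals from the fit's degrees of freedom. The log2 CPM profiles used a pseudocount of 0.5. The workflow was tested on simulated data. Replicates differed beyond sampling noise (chi-square per degree of freedom 2.91 and 5.12).

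The members and lists were chosen with earlier results of these data known. Named genes were the members, Cpeb4, the Golm1 paralogue, up to 4 called genes per list with the smallest p, and the 3 nearest profiles of Golm1 and of Tm9sf3. Naa35, Col1a1, Col1a2 and Cd3e were named after their values were seen. Of 200 symbols in the Golgi lists, older names included, 194 were found. Alternatives were RLE factors, library totals, DESeq2 1.42.0, 2 other count filters, a replicate block and each library left out. RefSeq gene spans (GRCr8) gave overlapping genes only. Levels per coding length were not computed, so levels are compared within a gene.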

Additional observations from a re-analysis of the deposited data

How the results depend on the processing

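Golm1 and Tm9sf3 kept their direction in all 10 alternatives, with log2 fold changes of 1.17 to 1.37 and of -1.25 to -1.02. In the alternatives that used all 4 libraries these 2 were the only members called, where 192 to 606 of all genes were called. Both were chosen on these same libraries, so this is no further evidence for them. Members without a call changed sign in some fits, each with a value near 0 apart from Gorasp2. With 1 library left out, the log2 fold change ranged from -0.212 to 0.0117 for Tm9sf1, from -0.0918 to 0.108 for Tm9sf2, from -0.0633 to 0.034 for Golgb1, from -1.06 to 0.578 for Gorasp2 and from -0.00985 to 0.0612 for Glg1. The sign turned without siCpeb4 replicate 2 for Tm9sf1, Tm9sf2, Golgb1 and Glg1, without control replicate 2 for Tm9sf2 and Glg1 and without control replicate 1 for Golgb1 and Gorasp2. With library totals only it was 0.0126 for Golgb1. The cause was not tested. Over all genes, 386 were called, 192 in DESeq2, 606 without a low-count filter and 212 to 324 with 1 library left out. Those called higher numbered 174, with 77 in DESeq2 and 79 to 138 with 1 library left out. Those called lower numbered 212, with 115 in DESeq2, 352 without a low-count filter and 133 to 186 with 1 library left out. Of the Golgi lists 9 genes were called, 2 in DESeq2 and 2 to 4 with 1 library left out. In these fits the group with 1 library is assumed to vary as the other group does.

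The replicate numbers do not come with a stated pairing, and the deviations of same-numbered libraries correlated at -0.11 across genes. With the replicate block 400 genes were called, and with the numbers crossed, chosen after seeing the data, 479. Levels per coding length were not run, since no coding lengths were used here. Gorasp2 had at most 39 footprints in a library, and only 2 libraries per group limit what small shifts in the other members could be seen.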
